A study of Mus musculus with 6 samples.

Results

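The Dppa genes of the mouse take their name from developmental pluripotency, and 4 of them, Dppa2, Dppa3, Dppa4 and Dppa5a, were read on oligonucleotide arrays of fetal testes with and without Dmrt1. They were taken as every probe set of the array that GEO's platform annotation assigns to exactly 1 gene symbol equal to one of these names. This gave 4 genes with 5 probe sets, of 18194 genes with 34958 such probe sets, and all 5 passed the filter on low values. Dppa2 had 2 probe sets and the other genes 1 each.

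The study asked how gene expression in the embryonic testis differs when Dmrt1, a DM domain transcription factor of Sertoli cells and germ cells, is lost, on a strain background where the mutants often develop teratomas. There were 3 null testis samples and 3 control testis samples, each titled as a biological replicate, all at E13.5, the stage counted in days of embryonic life, and all from stock outcrossed to 129S6/SvEvTac. The null samples are Dmrt(-,-) by title and Dmrt1(-,-) by source name and design text, while their genotype entry reads Dmrt(flox/flox), and no Cre driver is named. The control samples are wt by title and source name, while their genotype entry, description and the design text give them as heterozygous, Dmrt1(+/-), so that the controls may carry 1 null allele themselves. Nothing in the labels says whether a sample held the gonads of 1 embryo or of several.

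Each probe set has 1 intensity per array, made by the authors with GCRMA and given on a linear scale. The 6 arrays had median intensities of 14.6 to 14.8 and upper quartiles of 224 to 233, and 3 arrays per group limit the precision of every value below. The ratio of the 3' to the 5' Actb control probe set, read for RNA quality, was 2.75 in null replicate 3. It was 1.91 to 2.15 in the other arrays, and its part in the Dppa values was not tested. The Dmrt1 probe set followed the labels, with intensities of 48.4, 26.9 and 23.8 in null replicates 1, 2 and 3, against 696, 1030 and 796 in control replicates 1, 2 and 3. The labels do not say whether it lies inside the deleted part of the gene. Markers of the testis were bright on all arrays: the Sertoli cell gene Aard read 3920 to 4580 in null and 5530 to 6050 in control testes, and Ddx4, the germ cell RNA helicase, 1500 to 1870 in null and 1470 to 2620 in control testes. A running number at the end of the array names puts the 3 null arrays before the 3 control arrays, so any effect of that order and the genotype cannot be told apart.

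Dppa2 and Dppa4 are neighbouring genes that encode related nuclear proteins with a SAP domain. In mouse embryonic stem cells the 2 proteins act as a pair on chromatin and help to activate early embryonic and germ line genes. Dppa3, also called Stella or PGC7, marks primordial germ cells, and as a maternal protein it protects DNA methylation in the zygote and limits the binding of the methylation cofactor UHRF1 to chromatin. Dppa5a, also called Esg1, encodes a small KH domain RNA-binding protein. All 4 are known from pluripotent cells and from fetal germ cells, and male germ cells turn much of this pluripotency programme down in fetal life as they leave the cell cycle.

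None of the 4 Dppa genes passed the test between null and control testes. The test was limma on log2 intensities, fitted to 22082 probe sets, with Benjamini-Hochberg adjustment over all of them and a threshold of 0.05. It called 0 of the 5 Dppa probe sets, where it called 6 probe sets in all, or 0.0272% of those tested. By the brightest probe set of each gene, 3 Dppa genes had lower and 1 had higher mean log2 levels in null testes, with a median log2 difference of -0.16. Over all 11874 genes tested the median was 0.03 and 43.7% had lower means in null testes. At an unadjusted limma p under 0.05 there was 1 Dppa probe set of 5, against 6.04% of all probe sets.

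Dppa2, the first of the SAP domain pair, was lower on average in null testes by both of its probe sets, and the 2 sets differed in whether the groups overlapped. The brighter set, 1453223_s_at, read 674, 972 and 822 in null replicates 1, 2 and 3, against 1050, 915 and 961 in control replicates 1, 2 and 3. Null replicate 1 was the lowest array and control replicate 1 the highest, and null replicate 2 lay among the controls. The null minus control log2 difference was -0.26 ± 0.14 (SE, n = 3 per group), a fold of 0.84 with a 95% confidence interval of 0.67 to 1.05 (limma adjusted p = 0.774). Single arrays moved this value, to -0.12 without null replicate 1 and to -0.39 without null replicate 2. The ending _s_at marks a probe set that can bind more than 1 transcript.

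The dimmer set of Dppa2, 1429654_at, read 47.9, 57.8 and 55.9 in null replicates 1, 2 and 3, against 71.0, 93.9 and 62.1 in control replicates 1, 2 and 3. Here all 3 null arrays lay below all 3 control arrays, the only Dppa probe set for which the groups did not overlap, against 12.8% of all tested probe sets, or 6.06% with the null arrays the lower ones. The log2 difference was -0.47 ± 0.19 (SE, n = 3 per group), a fold of 0.72 with a 95% confidence interval of 0.53 to 0.98 that does not adjust for the number of probe sets. Limma gave an unadjusted p of 0.038 and an adjusted p of 0.773, so the set was not called. Of all tested probe sets, 4.54% had a smaller p. Control replicate 2 stood highest for this set, and without it the difference was -0.31. The intensities of this set lie below the upper quartile of each array, where folds depend more on the background correction.

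Dppa4, the partner of Dppa2, was spread widely inside both groups. It read 1020, 684 and 690 in null replicates 1, 2 and 3, against 671, 1510 and 980 in control replicates 1, 2 and 3. The lowest and the highest of the 6 values were both controls, and null replicate 1 was the second highest array. The log2 difference was -0.35 ± 0.29 (SE, n = 3 per group), a fold of 0.79 with a 95% confidence interval of 0.50 to 1.25 (limma adjusted p = 0.821). Its standard deviation within groups was 0.47 on the log2 scale, above that of 93.9% of all tested probe sets, whose median was 0.18. The difference was -0.05 without control replicate 2, -0.63 without control replicate 1 and -0.54 without null replicate 1.

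Dppa3 was bright in every array and did not separate the genotypes. It read 4190, 3630 and 3340 in null replicates 1, 2 and 3, against 3050, 4890 and 3890 in control replicates 1, 2 and 3. As for Dppa4, control replicate 2 was the highest array, control replicate 1 the lowest and null replicate 1 the second highest. The log2 difference was -0.06 ± 0.16 (SE, n = 3 per group), a fold of 0.96 with a 95% confidence interval of 0.74 to 1.24 (limma adjusted p = 0.940). The sign turned to 0.10 without control replicate 2. RefSeq lists a pseudogene of this gene, Dppa3-ps, and how far its transcripts bind the probe set was not tested.

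Dppa5a was bright and the steadiest of the 4 genes. It read 4890, 4830 and 4500 in null replicates 1, 2 and 3, against 4380, 4990 and 4250 in control replicates 1, 2 and 3. The highest and the lowest array were again controls, with all null arrays between them. The log2 difference was 0.06 ± 0.07 (SE, n = 3 per group), a fold of 1.05 with a 95% confidence interval of 0.93 to 1.17 (limma adjusted p = 0.866). Leaving out control replicate 3 gave 0.02, and leaving out control replicate 2 gave 0.13. The within-group standard deviation of 0.10 was the smallest among the Dppa probe sets and lay above that of 18.5% of all tested probe sets. RefSeq lists pseudogenes of it too, Dppa5b and Dppa5c, whose binding to the probe set was not tested.

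**Figure D1:**
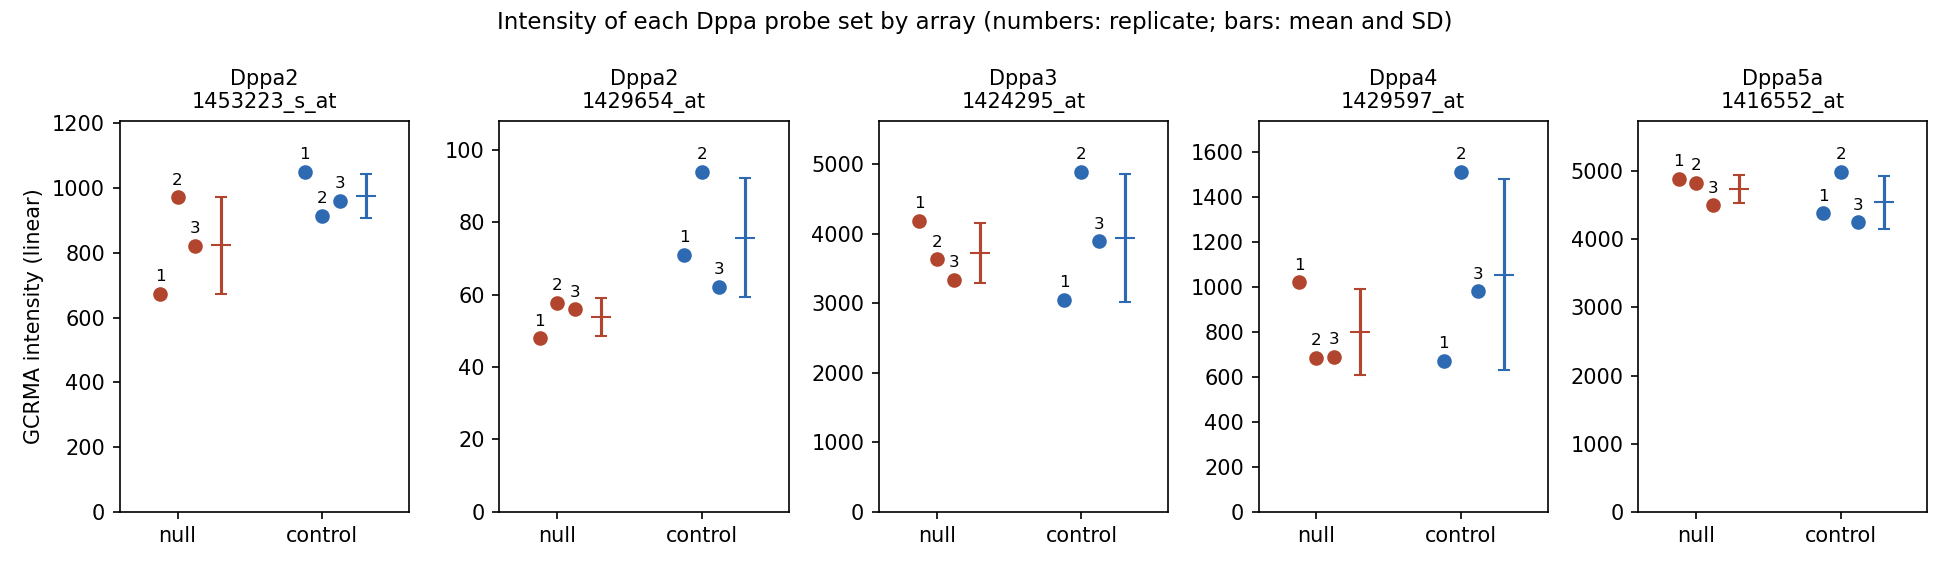
GCRMA intensity on a linear axis from 0 for each Dppa probe set, with 1 point per array numbered by replicate, null testes left of control testes, and the mean with SD beside each group. Only the dimmer Dppa2 set has groups that do not overlap (47.9 to 57.8 in null, 62.1 to 93.9 in control), and for Dppa4 the lowest and highest arrays, 671 and 1510, are both controls.

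**Figure D2:**
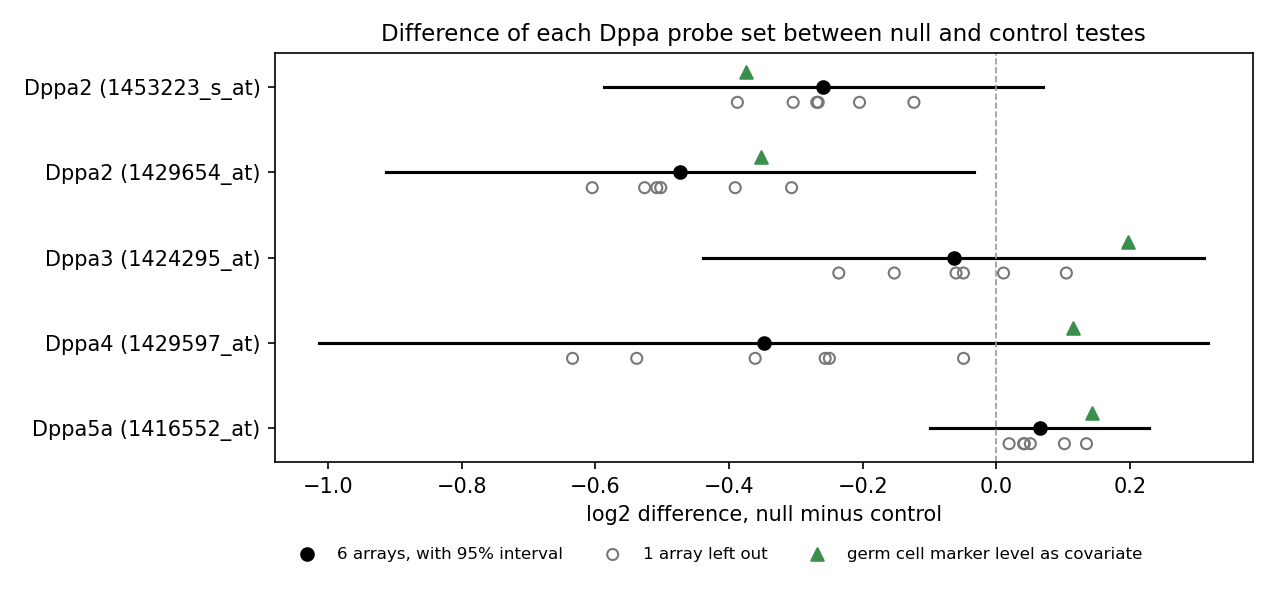
Log2 difference of null minus control for each Dppa probe set over 6 arrays (black point, with its 95% confidence interval), with each array left out in turn (open circles) and with the mean germ cell marker level as a covariate (triangles). The interval of the dimmer Dppa2 set alone excludes 0, before adjustment, and the Dppa3 and Dppa4 triangles lie right of 0, at 0.20 and 0.12.

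The Dppa probe sets did not all share a pattern over the arrays. Across the 6 arrays the log2 levels of Dppa3 and Dppa4 had a Pearson correlation of 0.94, which describes these arrays only, since each array is 1 RNA sample with its own cell content and amplification. Dppa4 had one of -0.26 with the brighter set of Dppa2, the other gene of the pair, but of 0.51 with its dimmer set. The 2 Dppa2 sets had one of 0.59 with each other. Both Dppa2 sets were lowest in null replicate 1, the array that was second highest for Dppa3, Dppa4 and Dppa5a.

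Most markers of germ cells were highest in control replicate 2, as Dppa3 and Dppa4 were. Of the 20 markers listed, 17 had a probe set with 1 symbol and 13 passed the filter; Tdrd1, Tdrd9, Tex101 and Taf7l lay below it. No germ cell marker was called, 12 of the 13 had lower means in null testes, and the median log2 difference was -0.32. The level of the list, averaged over markers after each was centred on its own mean log2 value, was 0.01, -0.37 and -0.40 in null replicates 1, 2 and 3, against -0.38, 0.99 and 0.16 in control replicates 1, 2 and 3. Control replicate 2 stood highest, and the other 5 arrays overlapped between the groups. The size of its lead rested in part on 3 dim markers of the piRNA pathway, Gtsf1, Tdrd5 and Piwil4, which lay 3.29, 2.05 and 1.87 above their means there and had log2 differences of -1.71, -1.42 and -1.11. The median over the 13 markers, computed after these values were seen, was 0.08, -0.22 and -0.37 in null replicates 1, 2 and 3, against -0.44, 0.82 and 0.07 in control replicates 1, 2 and 3. The summed intensity of the markers was 9417 to 11962 in null and 10042 to 17290 in control testes. In bulk tissue fewer germ cells and less RNA per germ cell cannot be told apart.

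Single germ cell markers differed in pattern. Dazl, an RNA-binding protein of germ cells, read 3330, 2760 and 2790 in null replicates 1, 2 and 3, against 3030, 3750 and 3300 in control replicates 1, 2 and 3. Stk31, a germ cell kinase, read 1120, 772 and 733 in null replicates and 676, 1910 and 1150 in control replicates 1, 2 and 3. The groups overlapped for both and neither passed the test, with log2 differences of -0.18 ± 0.10 for Dazl and -0.41 ± 0.35 for Stk31 (SE, n = 3 per group). Control replicate 2 was the highest array for both. A dimmer Dazl set had a difference of -0.48 ± 0.22 and a dimmer Stk31 set one of -0.52 ± 0.38, with groups that overlapped (limma adjusted p = 0.773 and 0.803). Kit, the receptor of germ cells for Kit ligand, was instead lowest in null replicate 1 and control replicate 2. It read 155, 317 and 267 in null replicates 1, 2 and 3, against 327, 166 and 206 in control replicates 1, 2 and 3. The log2 difference of Kit was 0.08 ± 0.32 (SE, n = 3 per group). The correlation of the germ cell level with log2 intensity over the 6 arrays was 0.97 for Dppa4 and 0.90 for Dppa3, 0.44 for Dppa5a, and 0.68 and -0.06 for the dimmer and the brighter Dppa2 set.

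With the mean germ cell level as a covariate Dppa2 stayed below 0 and the other Dppa genes lay above it. The log2 difference was then 0.12 ± 0.12 for Dppa4, 0.20 ± 0.07 for Dppa3 and 0.14 ± 0.06 for Dppa5a, and -0.37 ± 0.15 for the brighter and -0.35 ± 0.21 for the dimmer Dppa2 set (SE, n = 3 per group). None passed the limma threshold, with adjusted p between 0.389 and 0.690. This fit leaves fewer degrees of freedom, and the covariate itself differed between the group means by -0.51. Subtracting the mean germ cell level from each Dppa log2 level, without a test, put the difference of every Dppa probe set above 0. It was then 0.25 for the brighter and 0.04 for the dimmer Dppa2 set, so the sign of Dppa2 depended on the form used. With the median over markers as the covariate, which differed by -0.32, the sign of Dppa4 did not turn: its difference was -0.04 ± 0.11, beside 0.11 ± 0.06 for Dppa3, 0.12 ± 0.06 for Dppa5a, and -0.33 ± 0.14 and -0.39 ± 0.20 for the brighter and the dimmer Dppa2 set.

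Other cell types varied over the same arrays. The level of the fetal Leydig cell markers was 1.20, -0.71 and -1.29 in null replicates 1, 2 and 3, against -0.76, 0.73 and 0.83 in control replicates 1, 2 and 3. The 3 arrays with Leydig levels above 0 were also the 3 highest for Dppa3 and Dppa4. Their summed intensities ran from 3204 to 12950 in null and from 4024 to 10320 in control testes. Endothelial markers were lowest in control replicate 2 at -0.87 and null replicate 1 at -0.35, and erythroid markers likewise at -1.06 and -0.33, where the other arrays had 0.22 to 0.46 and -0.18 to 0.59. The summed endothelial signal was 1041 to 1897 in null and 727.6 to 1696 in control testes, and that of the erythroid markers 13323 to 17717 and 10754 to 18703. Among these markers 1 was called, the cystatin gene Cst9 of fetal Sertoli cells, which fell to 1063 ± 177 in null testes, against 3147 ± 276 in control testes (mean intensity ± SD, n = 3 each). Its log2 difference was -1.58 (limma adjusted p = 0.0271), and that of Aard was -0.43 (limma adjusted p = 0.474). As a list, Sertoli cell levels lay between -0.12 and 0.19, and macrophage levels between -0.21 and 0.43. The summed Sertoli signal was 21449 to 23494 in null and 25399 to 26767 in control testes. These sums include the bright Cst9 and Aard, both lower in null testes. Of the 12 Sertoli markers tested, 7 had higher and 5 had lower means in null testes, with a median log2 difference of 0.03. The summed macrophage signal was 685.6 to 735.4 in null and 836.4 to 1237 in control testes. The part of these cell types in the Dppa values was not tested.

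**Figure D3:**
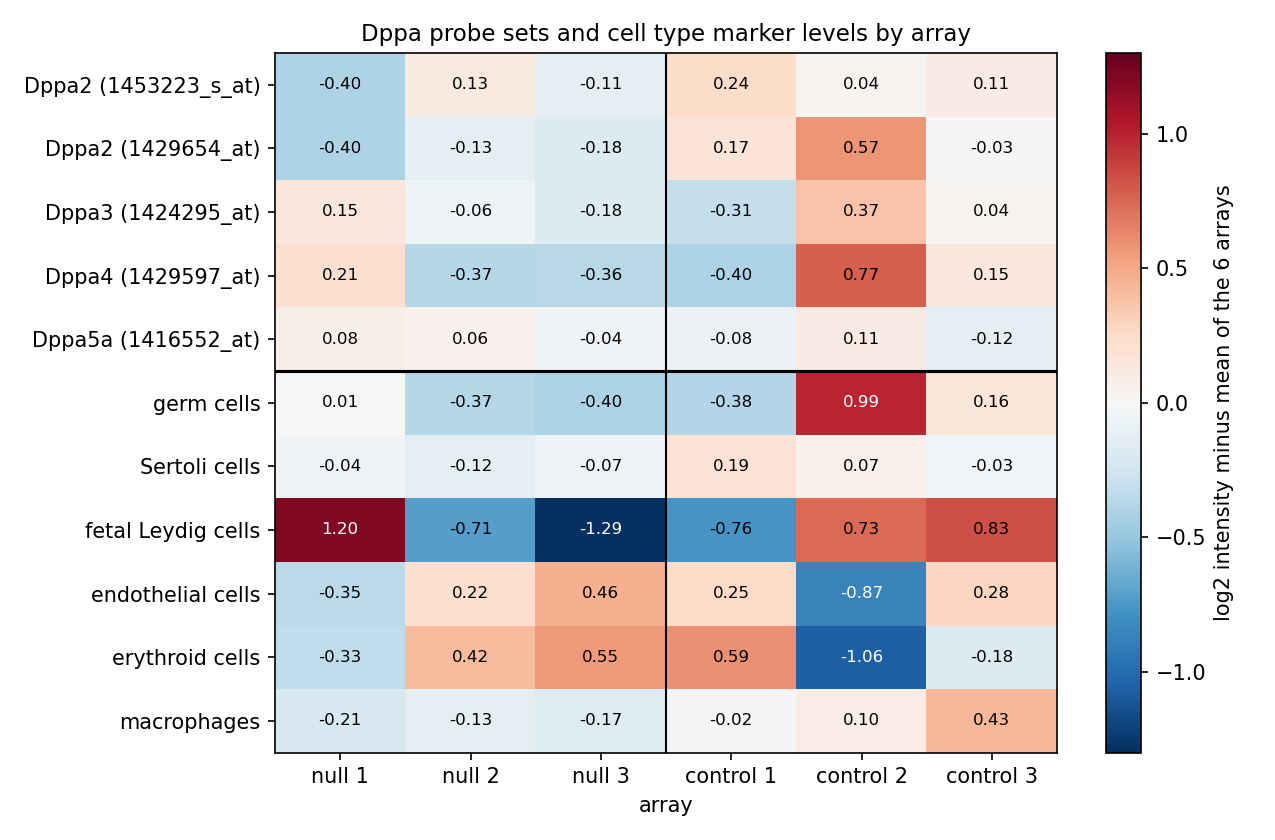
Log2 level, centred on the 6-array mean, of each Dppa probe set (upper rows) and the mean of the same over the tested markers of each cell type (lower rows), null arrays left of control arrays. Control replicate 2 is highest for Dppa4 at 0.77, Dppa3 at 0.37 and germ cells at 0.99, and lowest for erythroid markers at -1.06.

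The names of null replicate 2 and control replicate 3 begin with the same number, followed by different letters. The labels do not say what the number means. Between these 2 arrays the null minus control difference in log2 level was -0.52 for Dppa4, -0.10 for Dppa3, 0.18 for Dppa5a, 0.02 for the brighter and -0.10 for the dimmer Dppa2 set. As single arrays these have no replicate error.

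The genes whose levels ran most like each Dppa gene were sought among genes with a mean log2 level of at least 6 and a standard deviation of at least 0.2 over the 6 arrays. For Dppa4 they were Stk31, Acot9 and Syt9, with Pearson correlations of 0.994, 0.994 and 0.992 over 6 arrays. For Dppa3 they were Enpp4, Spice1 and Prkdc at 0.994, 0.988 and 0.983, for Dppa5a Snrnp25, Nme6 and Myg1 at 0.965, 0.965 and 0.964, and for Dppa2 Kmt2a, Shroom4 and Rab22a at 0.990, 0.989 and 0.986. A correlation above 0.9 was reached by 129 of 3361 genes with Dppa4, 128 with Dppa3, 67 with Dppa2 and 27 of 3362 with Dppa5a.

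Genes listed as targets of DPPA2 and DPPA4 in mouse embryonic stem cells were mostly dim in these testes. Of 12 listed, 9 had a probe set with 1 symbol and 4 passed the filter; Duxf3, Zfp352, Tcstv1, Tcstv3 and Nkx2-5 lay below it. None of the 4 was called, 3 had lower and 1 had higher means in null testes, and the median log2 difference was -0.13. Mael, a piRNA pathway gene that is also in the germ cell list, read 1210, 836 and 651 in null replicates 1, 2 and 3, against 692, 1930 and 963 in control replicates 1, 2 and 3, at a log2 difference of -0.32 ± 0.37. Hormad1, of the meiotic chromosome axis, read 749, 273 and 254 in null replicates and 288, 679 and 430 in control replicates, at -0.23 ± 0.45. The groups overlapped for both, and null replicate 1 and control replicate 2 were the 2 highest arrays of each, as for Dppa4. Syce1, a synaptonemal complex protein, had a difference of 0.17 ± 0.29 and Prex2, an exchange factor for Rac, one of -0.02 ± 0.30 (SE, n = 3 per group).

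None of the genes around DPPA3 in DNA methylation was called. Of 14 listed, 12 were tested, with 6 higher and 6 lower in their mean log2 levels and a median log2 difference of -0.02. Uhrf1, the cofactor that DPPA3 restrains, read 3610, 4020 and 3720 in null replicates 1, 2 and 3, against 4210, 3970 and 3790 in control replicates 1, 2 and 3. The groups overlapped, and the difference was -0.08 ± 0.06 (SE, n = 3 per group, limma adjusted p = 0.823), while a second Uhrf1 probe set gave a null over control fold of 0.81, with null arrays below all control arrays (limma adjusted p = 0.773). Dnmt1, the maintenance methyltransferase, had a log2 difference of 0.05 ± 0.06, Pcna, the replication clamp, 0.11 ± 0.05, and Trim28, a corepressor that protects imprints, 0.03 ± 0.05. The TET enzymes, which oxidise methylated cytosine, were added after their values were seen. Tet1 read 453, 503 and 375 in null replicates 1, 2 and 3, against 618, 541 and 547 in control replicates 1, 2 and 3, with all null arrays below all control arrays, at a difference of -0.37 ± 0.14. Limma gave Tet1 an unadjusted p of 0.0294 and an adjusted p of 0.773. Tet2 ranged from 406 to 849 in null and from 666 to 930 in control testes, at a difference of -0.38 ± 0.27.

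The KH domain relatives of Dppa5a include Ooep and Khdc3, whose proteins belong to a maternal complex of the oocyte and early embryo. Of 5 listed, 3 passed the filter, none was called, and all 3 had lower means in null testes, with a median log2 difference of -0.12. Ooep, the next gene after Dppa5a in the RefSeq order, read 1310, 481 and 506 in null replicates 1, 2 and 3, against 425, 1210 and 723 in control replicates 1, 2 and 3. Null replicate 1 was the highest array and control replicate 1 the lowest, so each group reached past the other at one end, at a difference of -0.07 ± 0.46 (SE, n = 3 per group). Khdc3 had a difference of -0.12 ± 0.43, with its highest arrays again null replicate 1 at 70.8 and control replicate 2 at 50.6, and Khdc1a one of -0.14 ± 0.23. Ooep ranged over a log2 span of 1.62 where Dppa5a ranged over 0.23.

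Partners of these KH proteins in the oocyte complex were read at 1 gene above the filter. Tle6, a corepressor-related member of that complex, read 117, 88.2 and 102 in null replicates 1, 2 and 3, against 78.8, 54.4 and 57.0 in control replicates 1, 2 and 3. All null arrays lay above all control arrays, at a log2 difference of 0.70 ± 0.19 (SE, n = 3 per group). It did not pass the test, with a limma unadjusted p of 0.00694 and an adjusted p of 0.773. Nlrp5 and Padi6, of the same complex, lay below the filter, with intensities of at most 18.4.

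The wider set of pluripotency factors gave no call either. Of 24 listed, 22 were tested, 13 with higher and 9 with lower means in null testes, at a median log2 difference of 0.13. Sall4, a zinc finger factor of germ cells and stem cells, read 4100, 4420 and 3810 in null replicates 1, 2 and 3, against 4240, 4500 and 4210 in control replicates 1, 2 and 3, at -0.07 ± 0.07. L1td1, an RNA-binding protein of pluripotent cells, read 1510, 1920 and 2050 in null replicates and 1910, 854 and 1170 in control replicates, at 0.55 ± 0.27, with control replicate 2 its lowest array. Tbx3, a T-box factor, had a difference of -0.19 ± 0.07 with groups that did not overlap, and Dnmt3b, a de novo methyltransferase, one of -0.03 ± 0.10 (SE, n = 3 per group). A second, dimmer Dnmt3b probe set had a difference of 0.40 ± 0.18 (limma adjusted p = 0.773). Limma adjusted p values of these 4 genes by their brightest sets were 0.773 to 0.950.

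The chromosome neighbours, 3 RefSeq genes on either side of each Dppa gene, included 6 tested genes besides the Dppa genes, 4 with lower and 2 with higher means in null testes. Their median log2 difference was -0.07 and none was called. Morc1, a germ cell gene beyond Dppa2, read 45.6, 50.1 and 47.1 in null replicates 1, 2 and 3, against 36.4, 230 and 51.3 in control replicates 1, 2 and 3, so that control replicate 2 alone stood apart, at a difference of -0.67 ± 0.60. Gdf3, a TGF-beta family ligand next to Dppa3, read 239, 154 and 146 in null replicates and 94.8, 150 and 126 in control replicates, at 0.53 ± 0.24 with groups that overlapped. Ddx43, a helicase gene beyond Ooep, had a difference of 0.09 ± 0.46, Gsta2, a glutathione transferase gene, -0.35 ± 0.69, and Apobec1, a cytidine deaminase gene, -0.06 ± 0.18 (SE, n = 3 per group). The other measured neighbours, 6430553K19Rik and Gm5485 near Dppa2 and Dppa4 and Omt2a and Omt2b near Dppa5a, lay below the filter, at intensities of 2.43 to 6.28.

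**Figure D4:**
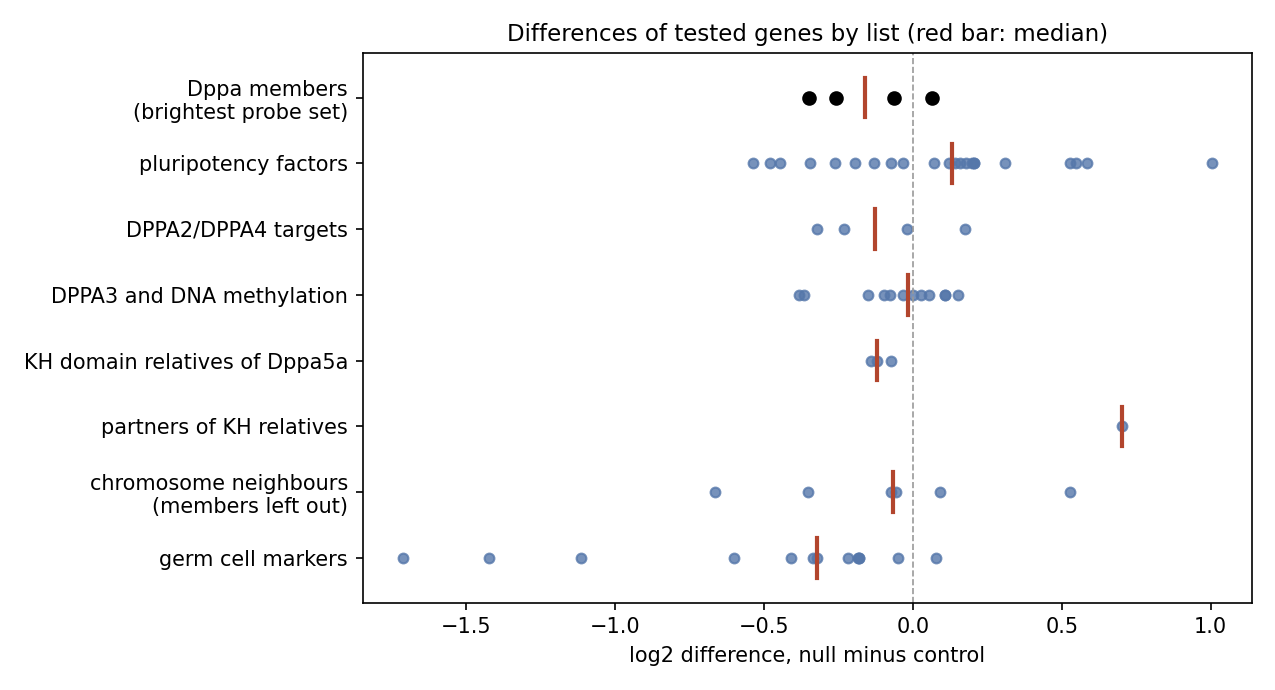
Log2 difference of null minus control for the brightest probe set of each tested gene, by list, with the list's median as a red bar. The Dppa genes lie between -0.35 and 0.06 with a median of -0.16, inside the spread of the pluripotency factors and of the germ cell markers.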

How the data were processed

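RNA from gonads was amplified and labelled with the NuGen Ovation kit, per the labels. The authors deposited 1 linear intensity per probe set and array, made with GCRMA, per the submitters' processing notes, with version and genome build not given in the sources used here. That method includes background correction, normalization and the summary of probes, so values near background depend on it. Probe-level values were not analysed here.

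Symbols came from GEO's platform annotation (34958 of 45101 probe sets with 1 symbol, 932 with several, 9211 with none). RefSeq (GRCm38.p6) was used for names and gene order, and 34754 of the named sets matched it by Entrez ID. The log2 of each intensity was taken without a constant. Limma 3.58.1 (R 4.3.3) was fitted to the probe sets whose mean reached 4, with a group term, an intensity trend in eBayes, two-sided tests and Benjamini-Hochberg adjustment over 22082 probe sets. Whether the replicates came from separate animals is stated only by the word biological in their titles. The brightest probe set stood for a gene. Tested on simulated data with 200 of 22082 probe sets changed, the fit called 66 of 100 changed by 1 and 95 of 100 changed by 2 on the log2 scale, with 6 false calls. The simulated noise was independent between probe sets, and many large changes make the adjustment less strict than in the real data. These rates therefore do not measure the power of the test for the Dppa genes.

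The Dppa genes and the lists were chosen with earlier results of these data known. The text names all Dppa probe sets, called list members, otherwise the 4 brightest of a list, measured neighbours and the 3 best correlated genes; of the cell type markers some are given as list levels only. Tet1, Tet2, Kit, Gtsf1, Tdrd5 and Piwil4 were added after their values were seen. Alternatives were other filters, normalizations, an added constant, variance models, a replicate block, the germ cell level as covariate (the median form added after seeing the data), 1 test per gene and leaving out each array.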

Additional observations from a re-analysis of the deposited data

How the results depend on the processing

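No Dppa gene was called in any of the 17 alternatives. Other filters, variance models and the replicate block can change the error and p of a probe set but not its log2 difference. In the alternatives that can move it, Dppa2 kept its direction, from -0.39 without null replicate 2 to -0.12 without null replicate 1. Dppa5a did so too, from 0.02 to 0.14. Over all 17, limma adjusted p was 0.396 to 0.961 for Dppa2 and 0.413 to 0.981 for Dppa5a. Dppa3 turned to 0.20 with the mean germ cell level as a covariate, to 0.11 with the median level, chosen after seeing the data, and ran from -0.24 to 0.10 with single arrays left out, positive without control replicate 2 (0.10) and without null replicate 3 (0.01). Dppa4 turned to 0.12 with the mean level, was -0.04 with the median level and ran from -0.63 to -0.05 with single arrays left out. Limma called 6 probe sets in all, 3 with the mean germ cell level, 1 without the intensity trend, 0 with the replicate number as a block and 0 to 4 with single arrays left out (0 without control replicate 3). With 1 null and 1 control array per replicate number, the block cannot move the Dppa differences, and it gave limma adjusted p of 0.961 to 0.976. Deviations of same-numbered arrays from their group means correlated at -0.59, -0.34 and 0.14. As deviations cancel within each group of 3 arrays, these values cannot decide whether the numbers pair the arrays. Low intensities limit the dimmer Dppa2 set, whose difference was -0.38 with 16 added to every intensity.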
